A study of Balaenoptera physalus with 6 samples.

Results

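HSPG2, NID2, LAMB3 and LOXL1 encode proteins of the basement membrane and of elastic fibres, and were followed through the cytosines that the study's authors listed as differently methylated between skin samples of the fin whale, Balaenoptera physalus. Members were all rows of the authors' lists whose promoter, exon or intron annotation named any of the 4 genes. The rule found 29 of 37640 listed cytosines, made up of 28 of 32682 CpG sites, 0 of 1742 CHG sites and 1 of 3216 CHH sites, where H is any base but G. Another gene was named at 0 of the 28 CpG sites. All 4 symbols were also found among the RefSeq genes of the fin whale (assembly mBalPhy2.hap1.1), a table consulted for gene names alone.

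The study measured methylation by reduced representation bisulfite sequencing (RRBS) of genomic DNA from skin of Mediterranean fin whales, with a group of 3 samples whose labels give a high organochlorine (OC) concentration and a group of 3 with a low one. RRBS reads the short fragments left by the enzyme MspI, and the methylation level of a cytosine is the percentage of its reads that stayed unconverted by bisulfite. The sources used here give neither the age and sex of the whales nor whether samples of a group came from separate animals. Titles of all high OC samples began with BPT and those of all low OC samples with BPL, so whatever these prefixes mark cannot be told apart from OC load. Skin is a mixture of cell types, and in such bulk DNA a different share of a cell type and a different level within it cannot be told apart. Of 31 marker genes of keratinocytes, fibroblasts, endothelial cells, melanocytes, adipocytes and immune cells, 5 had a listed CpG site. Among these, VWF had 2 sites higher and 3 lower in high OC skin, KDR 1 and 2, DCT 0 and 1, and LEP 1 and 0. Markers are defined by expression, which was not measured, so the tissue label could not be checked and the part of cell mixture in the results was not tested.

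The basement membrane is a thin sheet of matrix that separates the epidermis from the dermis and surrounds vessels and nerves. Laminins and type IV collagen each form a network in it, and nidogens and the heparan sulfate proteoglycan perlecan tie these networks together. Elastic fibres run through the dermis below. They consist of elastin on a scaffold of microfibrils, and enzymes of the lysyl oxidase family cross-link the elastin. In vertebrate genomes, methylated CpG sites in a promoter are often found at genes of low activity, whereas CpG sites in gene bodies are commonly methylated whether a gene is active or not.

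The listing itself used the difference between the groups. A site was listed when its mean fraction differed by at least 0.1 and the authors' unadjusted p was at most 0.05. The differences below are therefore descriptions, not tests, and the separation of the groups is built into the choice of sites. At 28 of 28 CpG sites the groups did not overlap, which held for 99.5% of all listed CpG sites. Among 651 unselected CpG sites at hand the authors called 2.00%, with 1.23% higher and 0.768% lower in high OC skin. Those sites ended at start 1103801 of scaffold NW_006724458_1 and reached none of the 4 genes, so the unlisted CpG sites of these genes were not analysed here. Just inside the thresholds lay an HSPG2 exon site with a difference of -0.1 and a LOXL1 promoter site with p = 0.04799 in the authors' deposited table, and sites just outside were not analysed here.

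Of the 28 CpG sites, 20 were higher and 8 lower in high OC skin, and the counts by direction differed between locations. All 12 promoter sites, 6 in LOXL1 and 6 in NID2, were higher, where 65.8% of 2713 listed promoter sites were. Exons held 2 higher and 7 lower sites, against 56.4% higher among all listed exon sites. Introns held 6 higher and 1 lower site, against 50.5%. The exon and intron shares include sites that were also annotated to a promoter. Outside promoters, where all 16 exon and intron sites here lay, 50.7% of 15831 listed exon and intron sites were higher. Over all listed CpG sites the higher share was 50.8%. With many sites on the same reads, these counts stand for fewer independent measurements, as given for each gene. The median absolute difference was 19.3 percentage points, close to the 19 points of all listed CpG sites. Positions are the start values of the authors' deposited tables. The assembly is not named in the sources used here.

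**Figure D1:**
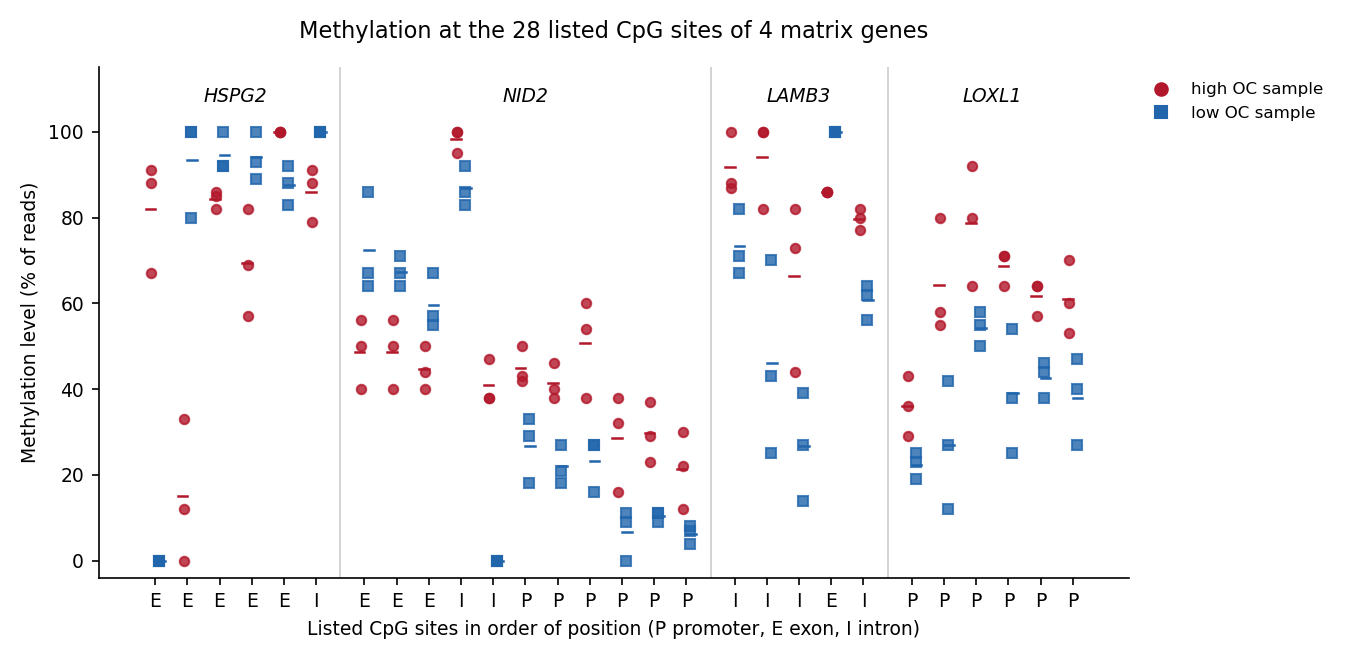
Methylation level (% of reads) in each of the 6 samples at the 28 listed CpG sites, in order of position within each gene. Points are single samples, short lines are group means (n = 3), and letters give the location. High OC samples (circles) lie above low OC samples (squares) at every promoter site, while the exon sites of NID2 and most of those of HSPG2 show the reverse.

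LOXL1 encodes a lysyl oxidase-like enzyme that oxidises lysines of elastin for cross-linking, and in mice its loss impairs the upkeep of elastic fibres. Its 6 listed sites lay within 173 bases of its promoter on scaffold NW_006734900_1, from start 2466973 to 2467146, and all were higher in high OC skin. Averaged over them, the high OC samples stood at 56%, 65.7% and 63.5%, and the low OC samples at 31.7%, 42% and 38%. The groups did not overlap, with means of 61.7% ± 5.07 (SD, n = 3) and 37.2% ± 5.21 (SD, n = 3).

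The best covered of these sites, at 2467146 on the plus strand, had 20 to 34 reads per sample. High OC levels there were 60%, 70% and 53%, and low OC levels 27%, 47% and 40%. Summed over samples, 50 of 84 high OC reads were methylated (59.5%, exact 95% interval 48.3% to 70.1%) against 32 of 82 low OC reads (39.0%, 28.4% to 50.4%). These intervals cover counting error only and overlap slightly. The 6 coverages at this site, and its methylated counts, were all even, so reads counted doubly would make the intervals too narrow.

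At 2467037 on the plus strand the high OC samples had 71%, 64% and 71% and the low OC samples 38%, 54% and 25%. At 2467053, also on the plus strand, they had 57%, 64% and 64% against 44%, 46% and 38%. At 2466973 on the plus strand they had 29%, 36% and 43% against 19%, 23% and 25%. These 3 plus-strand sites had the same coverage in every sample, as sites on the same fragments would, and among them the site at 2466973 had the lowest level, shared with 2467037 in low OC replicate 3.

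The minus strand of that same CpG, at 2466974, differed more between the groups, at 55%, 80% and 58% against 12%, 27% and 42%. It is the only CpG of the 4 genes with both strands listed. The strands moved in the same direction, by 13.7 points on the plus and 37.3 points on the minus strand, with as few as 5 reads in high OC replicate 2. The next minus-strand site, at 2466988, had 64%, 80% and 92% against 50%, 55% and 58%. Counted by coverage equal within 1 read in every sample on a strand, the 6 sites rest on 3 sets of reads, and only the site at 2467146 had at least 10 reads in every sample.

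NID2 encodes nidogen-2, a linker that binds laminin and type IV collagen. It had the most listed sites of the 4 genes, 8 higher and 3 lower, spread over scaffold NW_006732012_1 from 6248093 to 6309663. Higher sites lay in the promoter and introns and lower sites in an exon at the far end of the annotated stretch. At least 11 listed CpG sites were found for 3.82% of the 6197 gene names in the list, and the median was 2.

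The NID2 promoter sites, from 6309485 to 6309663, averaged 40%, 36.5% and 31.8% in the high OC samples and 12.3%, 16.7% and 18.7% in the low OC samples. The group means were 36.1% ± 4.10 (SD, n = 3) and 15.9% ± 3.24 (SD, n = 3), without overlap. Low OC replicate 1 was the lowest of the 6 samples in this promoter and in that of LOXL1. In both groups the last 3 listed promoter sites had a lower level than the first 3, and unlisted promoter sites were not analysed here. The first 3 sites averaged 45.7% ± 3.18 (SD, n = 3) in high and 24% ± 5.36 (SD, n = 3) in low OC skin, and the last 3 averaged 26.6% ± 5.39 (SD, n = 3) and 7.78% ± 1.26 (SD, n = 3). The difference was of similar size in both, at 21.7 and 18.8 points.

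The deepest sites of the 4 genes were in this promoter. At 6309635 on the plus strand, with 25 to 48 reads per sample, the high OC samples had 38%, 32% and 16% and the low OC samples 0%, 11% and 9%. In low OC replicate 1, 0 of 38 reads were methylated there, which an exact 95% interval takes up to 9.25%. At 6309646, 11 bases on and on nearly the same reads, levels were 29%, 23% and 37% against 11%, 11% and 9%. Summed over samples, 34 of 112 high OC reads (30.4%, exact 95% interval 22.0% to 39.8%) and 12 of 120 low OC reads (10%, 5.27% to 16.8%) were methylated at 6309646. All coverages and methylated counts were even there too. At 6309635 the methylated counts were all even, as were the coverages except the 25 reads of high OC replicate 2. Reads counted doubly would make the intervals at both sites too narrow.

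High OC replicate 3 was the lowest high OC sample at 6309635 and the highest at 6309646, so the order of the samples changed within 11 bases. At 6309663 on the minus strand the levels were 30%, 22% and 12% against 8%, 4% and 7%, on 18 to 29 reads. Shallower sites completed the promoter. At 6309485 the levels were 43%, 42% and 50% against 18%, 29% and 33%. At 6309506 they were 46%, 40% and 38% against 21%, 18% and 27%, and at 6309514 they were 54%, 60% and 38% against 16%, 27% and 27%. The last pair shared its coverage in every sample, and the 6 promoter sites rest on 4 sets of reads.

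Further listed sites with no gene name lay 32 and 34 bases beyond the last promoter site, at 6309695 and 6309697 on the minus strand. Each was covered by 14 to 36 reads, with the same coverage in every sample, so they count as the same set of reads. All coverages were even there, and reads counted doubly would make their depth appear greater than it was. At 6309695 the high OC samples had 44%, 45% and 33% and the low OC samples 15%, 0% and 10%. At 6309697 they had 72%, 82% and 67% against 31%, 29% and 60%. Both sites differed by more than 30 points, at 32.3 and 33.7, and the groups did not overlap at either. Within 10000 bases of the listed LAMB3 and LOXL1 sites, 0 further sites were listed. Near HSPG2 there were 3, all annotated to the neighbouring gene LDLRAD2 and at least 7981 bases from the closest HSPG2 site. They were higher in high OC skin by 34.7, 34 and 67 points. Coverage in the high and then the low OC samples was 15, 15, 13, 10, 19 and 10 reads at 20697748. At 20697758 it was 30, 30, 26, 20, 40 and 20 reads, so these neighbouring sites are not shown to be separate. The site with 67 points, at 20698009, had only 5 to 11 reads.

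**Figure D2:**
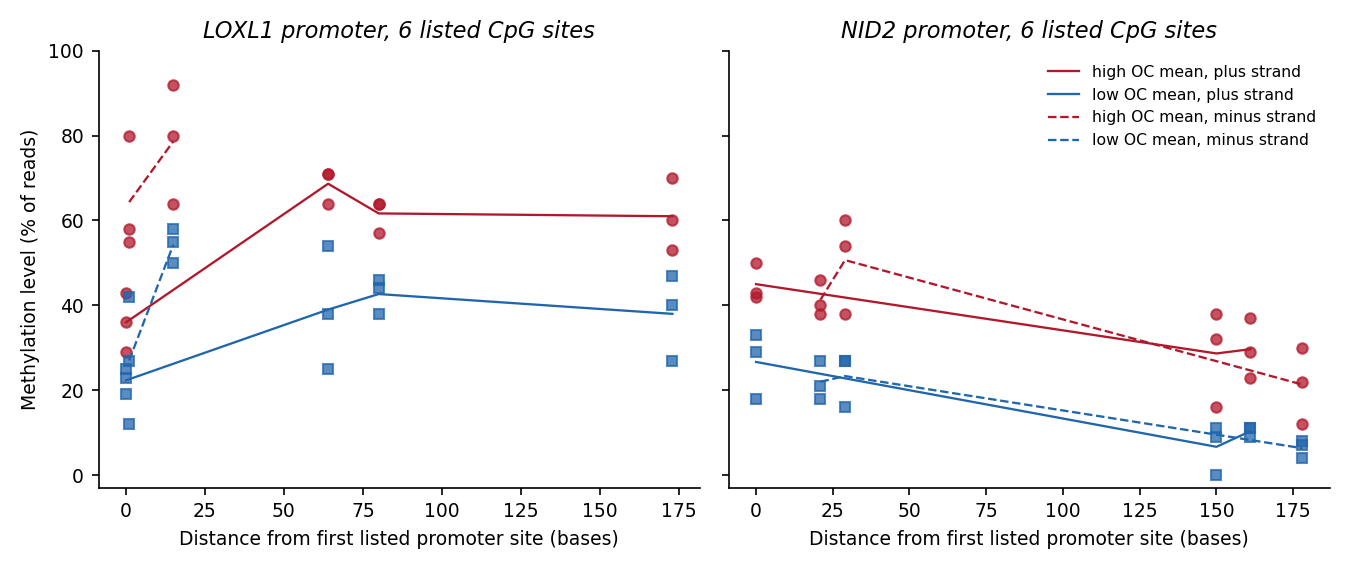
Methylation level (% of reads) at the 6 listed promoter CpG sites of LOXL1 and of NID2 against distance in bases from the first of them. Circles are high OC and squares low OC samples, and lines join group means on the plus (solid) and minus (dashed) strand. High OC samples lie above low OC samples at each site, and both groups average lower at the last 3 than at the first 3 listed NID2 promoter sites.

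The NID2 intron site at 6282212 on the plus strand had 47%, 38% and 38% in the high OC samples and 0% in each low OC sample. That is 15 of 35 reads (exact 95% interval 26.3% to 60.6%) against 0 of 25, with an upper bound of 13.7%. It was the strongest NID2 difference, at 41 points, and the coverage was 6 to 19 reads. The intron site at 6252036 was nearly fully methylated throughout, at 95%, 100% and 100% against 86%, 92% and 83%. In the latter, the 11.3 points between the groups stand for 1 unmethylated read in each low OC sample and 1 in all of high OC.

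The 3 lower NID2 sites, at 6248093, 6248099 and 6248138 in an exon, had the same 5 to 11 reads in every sample and so count as 1 set of reads. Their average was 50%, 52% and 40% in the high OC samples and 67%, 71.3% and 61% in the low OC samples. In high OC replicate 3 each of the 3 sites had 2 methylated reads of 5. At 6248093, where the difference was greatest, 11 of 22 high OC reads (50%, exact 95% interval 28.2% to 71.8%) and 19 of 27 low OC reads (70.4%, 49.8% to 86.2%) were methylated. These intervals overlap over most of their length. The opposite direction of the NID2 exon thus rests on few reads, and on none of its sites did every sample have 10.

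HSPG2 encodes perlecan, the large heparan sulfate proteoglycan of basement membranes, which also holds growth factors. It had 2 higher and 4 lower CpG sites on scaffold NW_006726131_1 between 20705990 and 20763442, and it was the only one of the 4 genes in which lower sites outnumbered higher ones. The direction changed between neighbours at 3 of 5 steps along the gene. The first of these changes lay between exon sites 2 bases apart, and the other changes lay between sites 19969 and 37355 bases apart.

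At 20705990 on the plus strand the high OC samples had 67%, 88% and 91% and the low OC samples 0%, 0% and 0%. At 20705992, also on the plus strand, they had 33%, 12% and 0% against 80%, 100% and 100%. The first site was thus higher by 82 points and the second lower by 78.3 points. Those were the largest differences of the 4 genes, and by the authors' difference they ranked 9 among 16600 higher and 15 among 16082 lower CpG sites. Summed over samples, 21 of 25 high OC reads were methylated at the first site (84%, exact 95% interval 63.9% to 95.5%) and 0 of 23 low OC reads (0% to 14.8%). At the second site it was 3 of 25 (12%, 2.55% to 31.2%) against 20 of 21 (95.2%, 76.2% to 99.9%). The intervals of the groups did not overlap at either site, but the sites were listed for their group difference. The intervals sum reads over samples and cover counting error only, and no sample had more than 11 reads.

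The sites mirrored each other within each sample. Coverage was 6, 8 and 11 reads at both sites in the high OC samples, and 6, 9 and 8 against 5, 9 and 7 in the low OC samples. The methylated reads of the first and second site added up to 6, 8 and 10 in the high OC samples and to 4, 9 and 7 in the low OC samples. That sum equalled the coverage of the second site in 4 of 6 samples and was 1 read short in the other two. Which reads carried both sites is not in the deposited values, so the exchange was not followed read by read.

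Such a pair was rare in the list. Among 206 pairs of listed CpG sites next to each other on a strand and at most 2 bases apart, 4 (1.94%) had opposite directions. The HSPG2 pair was the only one of these with at least 50 points at both sites. Up to 100 bases apart, 388 of 5391 pairs (7.20%) were opposite, and 4 of them had 50 points at both sites. Whether a sequence difference between the samples or from the reference touches this pair was not tested.

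**Figure D3:**
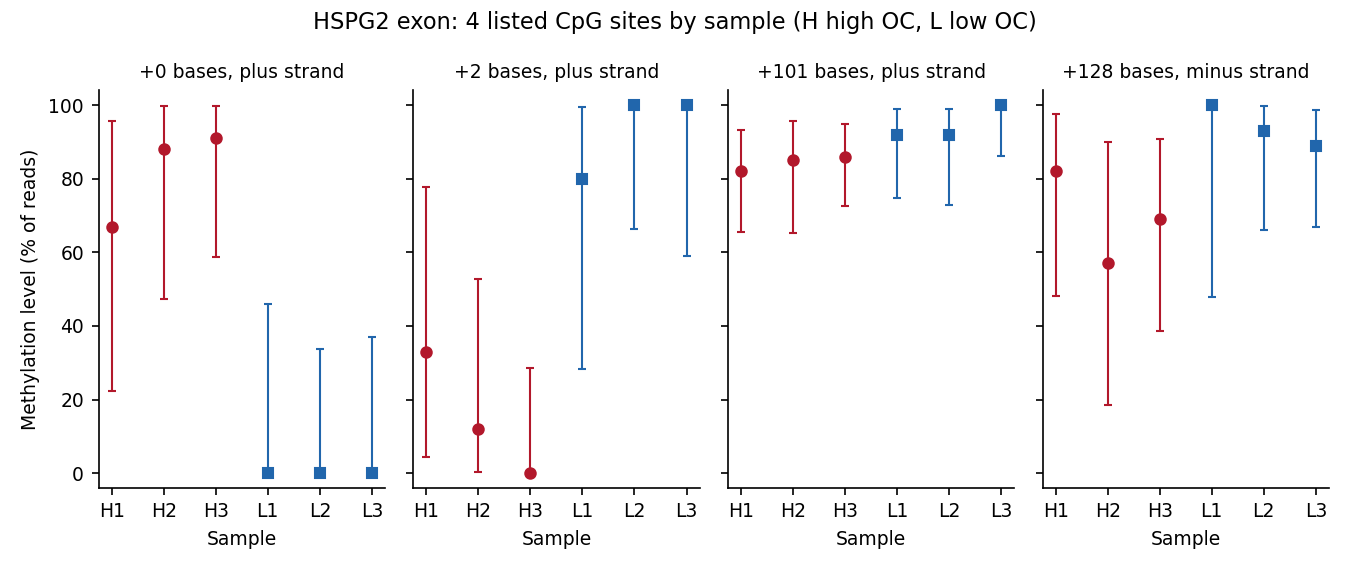
Methylation level (% of reads) by sample at the 4 listed CpG sites of an HSPG2 exon cluster, labelled by distance in bases from the first. Points are single samples (H1 to H3 high OC, L1 to L3 low OC) and bars are exact 95% intervals for counting error. The first site is at 0% in all low OC samples, the second is at least 80% in them, and the remaining sites differ much less.

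The other HSPG2 sites averaged at least 69.3% in both groups and differed by less. Within the same 128 bases, the plus-strand site at 20706091 was the best covered, with 24 to 44 reads. It had 82%, 85% and 86% in the high OC and 92%, 92% and 100% in the low OC samples, or 84.3% ± 2.08 (SD, n = 3) against 94.7% ± 4.62 (SD, n = 3). Coverages and methylated counts at 20706091 were even except the 25 of 25 reads in low OC replicate 3. Reads counted doubly would make the depth of this site appear greater than it was. The minus-strand site at 20706118 had 82%, 57% and 69% against 100%, 93% and 89%, on 5 to 19 reads. Both were lower, in the direction of the second site of the pair.

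The exon site at 20726087 on the minus strand went the other way, at 100% in each high OC sample and 92%, 83% and 88% in the low OC samples. There 0 of 60 high OC reads and 8 of 70 low OC reads were unmethylated, and all counts were even. At the intron site 20763442 it was the low OC samples that stood at 100%, on 24 reads, while the high OC samples had 88%, 91% and 79%.

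The only non-CpG member was a CHH site in an HSPG2 intron, at 20768384 on the minus strand. Its levels of 11%, 7% and 14% in high OC skin stand for 1 methylated read in each sample, of 9, 15 and 7. The low OC samples had 0 methylated reads of 10, 9 and 10. Summed, this is 3 of 31 reads (9.68%, exact 95% interval 2.04% to 25.8%) against 0 of 29 (up to 11.9%), a difference not detectable at this depth. Of 662 unselected CHH sites 0 were called by the authors, which allows a share of up to 0.453%, taken as 3 counts of 662. Of all listed CHH sites 50.2% were higher.

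LAMB3 encodes a beta chain of the laminin through which basal keratinocytes are anchored, and in humans its loss causes a blistering disease of the skin. It had 4 higher sites in introns and 1 lower site in an exon, on scaffold NW_006724458_1. The 3 neighbouring intron sites at 2479681, 2479704 and 2479725 lay within 44 bases and averaged 90%, 77% and 85% in the high OC samples and 59.7%, 36.7% and 49.7% in the low OC samples. The group means there were 84% ± 6.56 (SD, n = 3) and 48.7% ± 11.5 (SD, n = 3). By coverage equal within 1 read they form 3 sets of reads, but they are not shown to be separate. The minus-strand sites at 2479681 and 2479725 lie 44 bases apart, and the first had exactly 2 times the reads of the second in 5 of 6 samples.

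At 2479704 on the plus strand the high OC samples had 100%, 100% and 82% and the low OC samples 70%, 25% and 43%, on 12 to 33 reads. Here 51 of 57 high OC reads (89.5%, exact 95% interval 78.5% to 96.0%) and 26 of 58 low OC reads (44.8%, 31.7% to 58.5%) were methylated. These intervals did not overlap, but they leave out the spread between samples, which had an SD of 22.6 in low OC skin. At 2479725 on the minus strand the levels were 82%, 44% and 73% against 27%, 14% and 39%. High OC replicate 2 stood only 5 points above low OC replicate 3 at that site. At 2479681 on the minus strand they were 88%, 87% and 100% against 82%, 71% and 67%, with all counts even. Low OC replicate 2 was lowest at 2479704 and 2479725, but at 2479681 it was low OC replicate 3.

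The remaining LAMB3 intron site, at 2487198, had 82%, 80% and 77% against 64%, 56% and 62%, with 8 to 15 reads. The exon site at 2486200, 998 bases before it, was lower in high OC skin. It stood at 86% in each high OC sample and 100% in each low OC sample. The authors' deposited table gives p = 0 for it, as for 0.0857% of all listed CpG sites. Both groups have no spread there, since the high OC samples had 12 of 14, 6 of 7 and 12 of 14 methylated reads. In reads, the site had 5 unmethylated of 35 in high OC and 0 of 24 in low OC skin. The exact 95% intervals for the methylated share were 69.7% to 95.2% and 85.8% to 100%, which overlap.

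**Figure D4:**
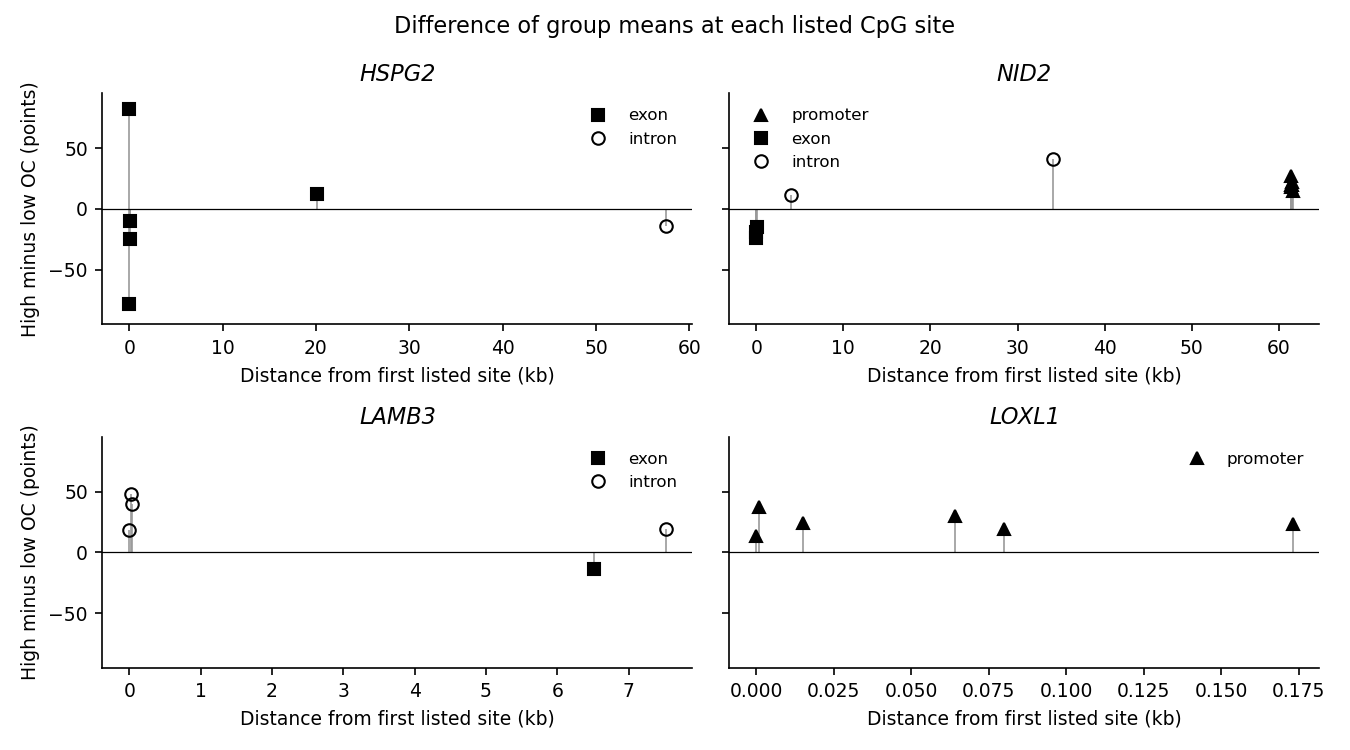
Difference of group means (high minus low OC, percentage points) at each listed CpG site against distance in kb from the first listed site of its gene. Triangles are promoter, squares exon and open circles intron sites. Promoter sites lie above 0 in NID2 and LOXL1, and the first HSPG2 exon sites hold both the greatest rise, 82 points, and the greatest fall, -78.3 points.

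Over the 4 genes together, listed promoter sites averaged 48.9% ± 1.88 (SD, n = 3) in high and 26.6% ± 3.98 (SD, n = 3) in low OC skin. Exon and intron sites averaged 71.0% ± 2.61 (SD, n = 3) and 66.4% ± 1.75 (SD, n = 3), with 8 higher and 8 lower sites. Coverage at the 28 sites did not separate the groups. Mean reads per site were 17.5, 12.3 and 17 in the high OC and 15.3, 14.5 and 16.7 in the low OC samples, or 15.6 ± 2.86 (SD, n = 3) against 15.5 ± 1.12 (SD, n = 3). An exact two-sided permutation test gave p = 0.9, where 3 samples against 3 cannot go below p = 0.1. High OC replicate 2 was the shallowest, and 8 of the 28 sites had at least 10 reads in every sample, against 36.9% of all listed CpG sites.

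Other genes of the same structures were mixed. Of 91 further genes in lists of basement membrane proteins, their receptors and anchors, elastic fibre proteins and matrix turnover, 49 had listed CpG sites, 92 higher and 108 lower. The higher share of 46.0% stood beside 53.0% over all gene names. By gene, 21 had more higher sites, 19 more lower sites and 9 as many of each. These counts describe sites that the authors selected, and were not tested.

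Among 18 of 32 basement membrane genes with a listed site, 42 sites were higher and 59 lower. PXDN, a peroxidase that cross-links type IV collagen, had 4 higher and 16 lower sites, between -39.7 and 35.7 points. LAMA5, a laminin alpha chain, had 5 and 10, COL18A1, whose collagen releases endostatin, had 3 and 9, and COL4A2, a chain of type IV collagen, had 2 and 6. LAMC3 had 2 and 5 and LAMA1 had 1 and 4. AGRN, the proteoglycan agrin, leaned the other way with 7 and 2, and SMOC2 had 6 and 5. NID1, the close relative of NID2, had 1 higher and 1 lower site. LAMA3, an alpha chain that joins LAMB3 in its laminin, had 1 higher site.

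Among receptors and anchors, 8 of 15 genes had listed sites, 7 higher and 11 lower, and ITGB4, the integrin subunit of hemidesmosomes that binds the laminin of LAMB3, had 2 and 5. Of the 25 elastic fibre genes 16 had listed sites, 30 higher and 23 lower. LOXL2, a relative of LOXL1, had 4 and 3, FBLN2 had 3 and 4, and FBN3 and LTBP2 had 3 and 3 each. LOX had 1 higher site, in its promoter, at 27.3 points, and ELN, the elastin gene, had 1 lower intron site at -16.3 points. Of the 19 matrix turnover genes 7 had listed sites, 13 higher and 15 lower. ADAMTS10, a microfibril-associated protease, had 8 and 0, and ADAMTSL2 had 3 and 9.

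NID2 and LOXL1 differed from these genes in where their sites lay. Only 7 of the 49 genes had a listed promoter site, 4 sites higher and 4 lower in all, and none had more than 2. In the whole list, 1820 genes had any listed promoter site and 40 of them at least 6, NID2 and LOXL1 among them, and 27 of the 40 had only higher ones. The members were chosen with these counts known, so their standing is a description.

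**Figure D5:**
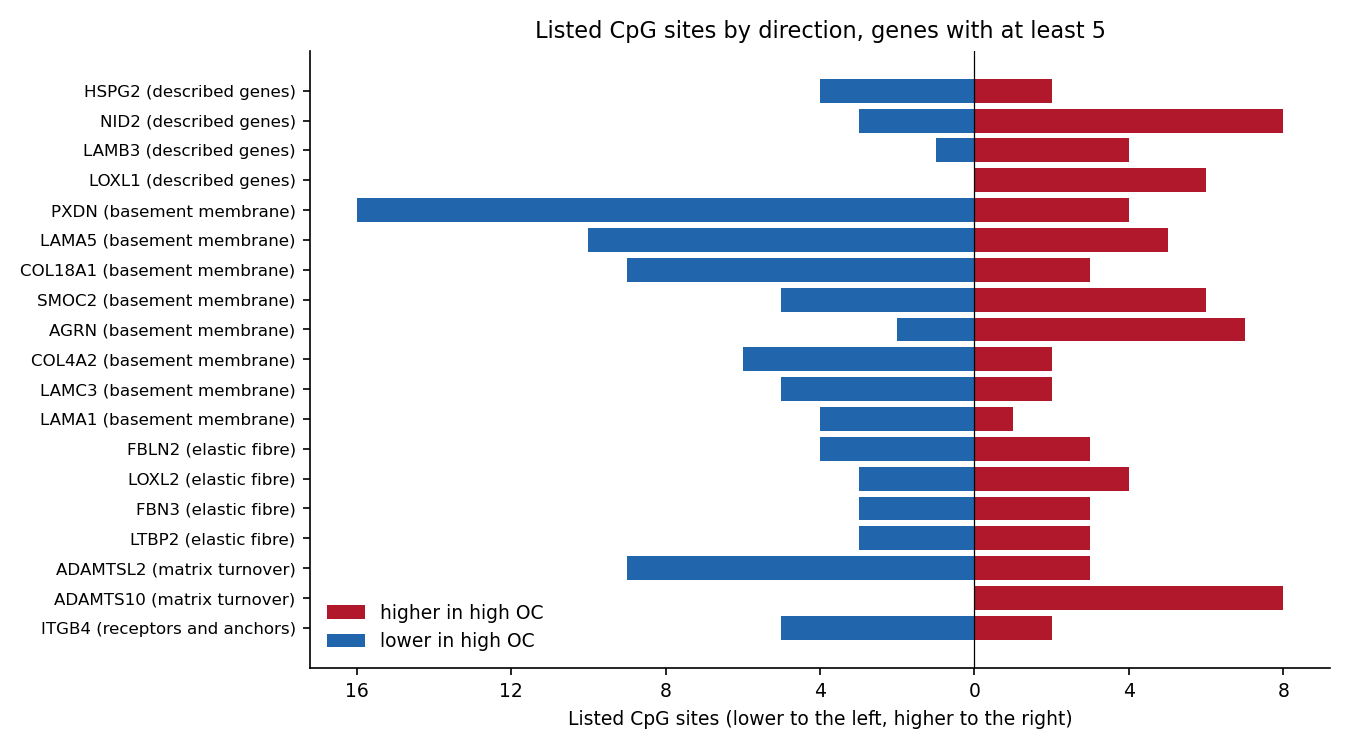
Number of listed CpG sites that were higher (right) or lower (left) in high OC skin for the 4 described genes and for the 15 genes of the fixed lists with at least 5 such sites. NID2 and LOXL1 lean to the right with 8 and 6 higher sites, PXDN has 16 lower sites, and ADAMTS10 has 8 higher and 0 lower.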

How the data were processed

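Per the labels' protocols, skin DNA was cut with MspI, converted with bisulfite, amplified and read on an Illumina HiSeq. Bismark is named in the submitters' processing notes. Its version, its filters, the genome, the annotation and the promoter length used are not stated in the sources used here. Per the file headers, the authors deposited for each cytosine and sample a methylation fraction, rounded to 0.01, and the count of reads covering it, with an unadjusted p-value per site, a difference of group means and a class. Methylated reads were taken as fraction times reads, rounded. From these, a two-sample test with equal variances gave the deposited p-value at 27 of 28 CpG sites within 0.1%, the exception having no spread in either group.

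Levels are means ± SD over 3 samples a group. Exact (Clopper-Pearson) 95% intervals cover counting error only, since they leave out variation between samples. No molecular identifiers are described, and reads counted doubly would make the intervals too narrow. A read set is a chain of sites on a strand, up to 150 bases apart, with coverage equal within 1 read in every sample. Coverage was compared by an exact permutation test. Its p is the share of groupings of the samples with an absolute difference of means at least as large. All sites of the 4 genes were described, and list genes with at least 5 listed CpG sites named. Smaller counts in NID1, LAMA3, LOX and ELN were added after their values were seen. Members and lists were chosen with earlier results of these data known. Shorter deposited lists were not used. Functions for differences, strands and read sets were tested on simulated data. Python 3.11.15, numpy 2.4.6, scipy 1.17.1, pandas 2.3.3 and matplotlib 3.10.9 were used.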

Additional observations from a re-analysis of the deposited data

How the results depend on the processing

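Directions could not turn when a sample or site was left out, since the listed groups do not overlap and means were taken over sites of the same direction. With at least 10 reads in every sample the higher counts fell from 2 to 1 in HSPG2, 8 to 3 in NID2, 4 to 2 in LAMB3 and 6 to 1 in LOXL1, and the lower counts from 4 to 1 in HSPG2, 3 to 0 in NID2 and 1 to 0 in LAMB3. With at least 20 reads the higher counts were 0, 2, 0 and 1 and the lower counts 1, 0 and 0, in the same order. Of the 4 sites left with at least 20 reads, 2 had even coverage in all samples, against 11.4% of all listed CpG sites. The others, at 20706091 in HSPG2 and 6309635 in NID2, each had an odd coverage in a single sample. Reads counted doubly would make the depth of such sites appear greater than it was. With a difference of at least 0.33 the higher counts were 1, 1, 2 and 1 and the lower counts 1, 0 and 0. The mean difference of HSPG2 higher sites, 47.2 points, was 12.3 with at least 10 reads and also without the pair 2 bases apart. That of its lower sites, -31.8 points, was -10.3 with at least 10 and with at least 20 reads, and -16.3 without the pair. These alternatives leave fewer sites by construction. Counted as read sets, the LOXL1 higher count was 3 and the NID2 lower count 1. Read sets and the omission of the pair were chosen after seeing the data. Where no site was left, no mean difference could be given.

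With a sample left out, higher counts were 2 to 2 in HSPG2, 7 to 8 in NID2, 4 to 4 in LAMB3 and 6 to 6 in LOXL1, and lower counts 3 to 4, 3 to 3 and 1 to 1 in the first 3 genes. Mean differences of higher sites were 44.9 to 50.9, 20.1 to 23.4, 26.2 to 35.8 and 21.7 to 27.4 points, and of lower sites -35.6 to -29.3, -21.8 to -15.4 and -14 to -14 points. The difference in mean coverage, 0.107 reads, ranged from -0.857 to 1.75 reads, with exact permutation p from 0.2 to 1, and was 0.833 for medians. It was -0.857, -0.571 and -0.393 reads without high OC replicates 1 and 3 and low OC replicate 2. No paired analysis was possible because the labels give the groups no shared replicate numbers. At 5 to 48 reads per site and sample, differences near full methylation rest on few reads.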
